A study of Mus musculus with 8 samples.

Results

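The 10 genes described here belong to the dopamine neuron: the enzymes that make dopamine (Th, Ddc and Gch1), the transporters that take it up and store it (Slc6a3 and Slc18a2), the transcription factors that specify and maintain these cells (Nr4a2, Pitx3, En1 and Foxa2) and the aldehyde dehydrogenase Aldh1a7. Each gene was represented by its probe set with exactly 1 gene symbol, the brightest over all arrays where there were several, and each of the 10 had 1 such probe set, among 19938 genes with probe sets of 1 symbol. The genes were chosen by role with earlier results of these arrays known, and Th was singled out for its measured early values, which are therefore given as a description without a test.

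Whole-brain RNA was taken from adult male offspring of the C57BL/6J strain on postnatal day 70. Their mothers had received ethanol in saline at 2.5 g/kg, or saline alone, injected 2 times on each of 2 days: gestational days 8 and 11 (early exposure, the trimester 1 equivalent) or gestational days 14 and 16 (late exposure, the trimester 2 equivalent). The 4 groups, early saline, early ethanol, late saline and late ethanol, had 2 arrays each, and every array held pooled RNA of 3 mice. Values are log2 expression, each SD is taken over n = 2 arrays, and the number of arrays limits the precision of every value. Levels were never compared across timings, since array medians lay at 6.74 to 6.84 early and at 7.21 to 7.30 late.

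Dopamine is made from tyrosine, which tyrosine hydroxylase (Th) converts to L-DOPA and aromatic amino acid decarboxylase (Ddc) to dopamine. Most dopamine neurons of the adult brain lie in the ventral midbrain and project to the striatum and the cortex, whereas a separate population, the periglomerular interneurons of the olfactory bulb, makes Th throughout life from newly generated neurons. Th is also made in noradrenaline neurons. The dopamine transporter Slc6a3 and the factor Pitx3 are largely restricted to midbrain dopamine neurons. Ddc also serves serotonin and noradrenaline neurons, and the vesicular transporter Slc18a2 serves monoamine neurons in general. Nr4a2 is also made in the cortex and claustrum. In a whole-brain extract, fewer cells of a type and less RNA per cell cannot be told apart.

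The regions upstream of Th and of both transporter genes are shown because Th was the member with the largest early difference and the transporters are the members it is compared with. They are the 250 bases before the RefSeq start on build GRCm38.p6, written 5′ to 3′ on the strand of the gene, with the letters of the cAMP response element (TGACGTCA) in capitals. Th lies on the minus strand (chr7:142899996-142900245), Slc6a3 on the plus strand (chr13:73536497-73536746) and Slc18a2 on the plus strand (chr19:59260628-59260877).
Th: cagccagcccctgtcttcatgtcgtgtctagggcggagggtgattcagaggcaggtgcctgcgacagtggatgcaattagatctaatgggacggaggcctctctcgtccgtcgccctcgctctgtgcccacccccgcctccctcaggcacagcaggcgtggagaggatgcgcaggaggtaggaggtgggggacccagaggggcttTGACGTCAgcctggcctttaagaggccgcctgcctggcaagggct
Slc6a3: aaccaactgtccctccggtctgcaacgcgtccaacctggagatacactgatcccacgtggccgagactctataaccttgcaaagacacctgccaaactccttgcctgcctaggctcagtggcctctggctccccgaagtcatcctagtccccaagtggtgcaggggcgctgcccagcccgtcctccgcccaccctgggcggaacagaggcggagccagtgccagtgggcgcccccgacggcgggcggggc
Slc18a2: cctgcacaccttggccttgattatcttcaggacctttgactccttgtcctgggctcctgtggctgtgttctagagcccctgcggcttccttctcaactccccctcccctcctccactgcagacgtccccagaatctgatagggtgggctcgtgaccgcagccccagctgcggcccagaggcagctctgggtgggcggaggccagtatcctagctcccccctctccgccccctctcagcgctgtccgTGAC
All 10 genes matched the RefSeq promoter table, with 13 windows of 300 bases in all, each holding the 250 bases before a start and the bases just after it. TGACGTCA, which reads the same on both strands, lay 45 to 38 bases before the start of Th and across the start of Slc18a2, whose window above ends within it after 4 letters. It was found in no window of the other 8 members and in 2.03% of the 27025 genes with a window. The element bound by Nr4a2 and its relatives as monomers (AAAGGTCA, searched on both strands) was found in 1 of the 10 genes, Ddc, at 73 to 66 bases before a start, and in 1.7% of all genes. TAATCC, a core bound by bicoid-type homeodomain factors such as Pitx3 and also searched on both strands, was found in 0 of the 10 genes and in 8.14% of all genes. No match of 1 motif overlapped a match of another, and a match or its absence describes only these windows.

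The arrays measured some of these genes well and others not at all. Olfactory and vomeronasal receptor genes are mostly silent in the brain, so the 95th percentile of their 1210 probe sets was taken as the background of each array (6.41 to 6.55 early and 7.28 to 7.70 late, on the log2 scale). Th, Ddc, Slc6a3, Slc18a2 and Nr4a2 lay above it in all 8 arrays. Gch1, Pitx3, En1, Foxa2 and Aldh1a7 lay above it in 0 of the 8 arrays. Of the 4 transcription factors that mark midbrain dopamine neurons only Nr4a2 was therefore measured above background, and Slc6a3 was the only measured member that is largely restricted to these cells.

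**Figure D1:**
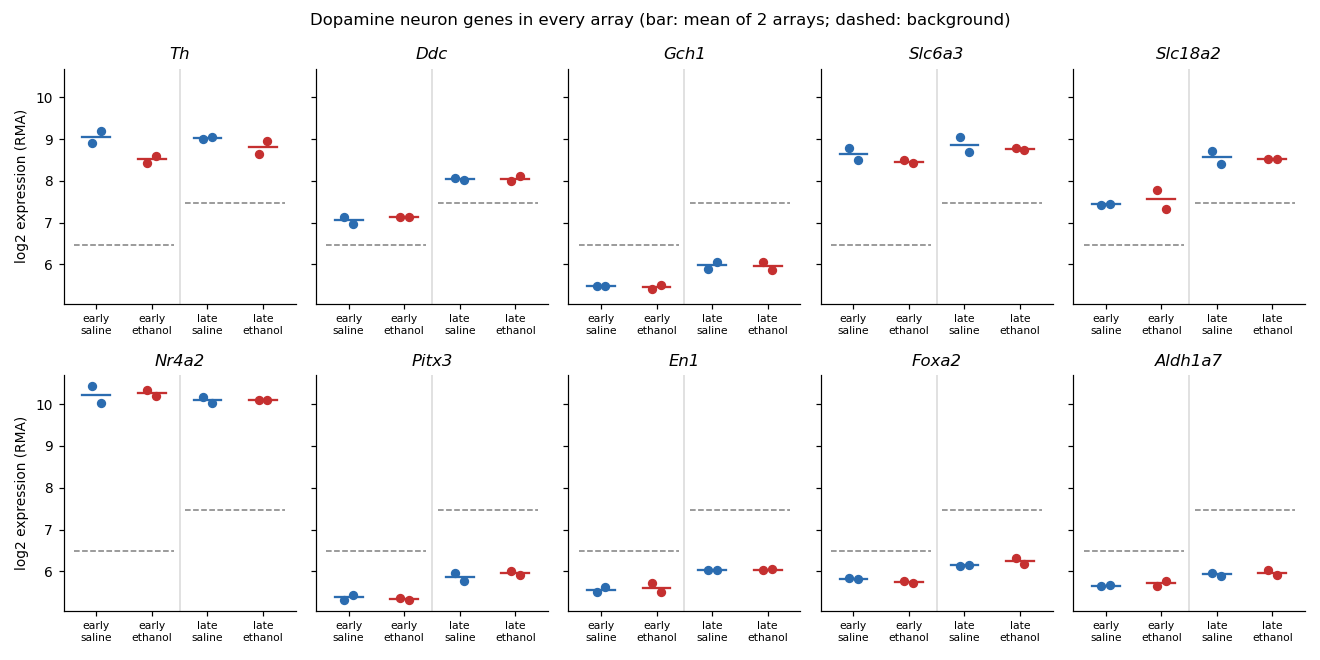
Log2 expression (vertical axis, RMA) of the 10 genes in each group (horizontal axis), with a point for each array (blue for saline, red for ethanol), bars for means over 2 arrays and a dashed line at the mean background of the timing. Th was lower in both early ethanol arrays (8.43 and 8.60) than in both early saline arrays (8.90 and 9.20), and 5 genes lay below the background throughout.

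After early exposure, Th, which catalyses the rate-limiting step of dopamine synthesis (probe set 10569370), was at 8.90 and 9.20 in the saline arrays and at 8.43 and 8.60 in the ethanol arrays. Both ethanol arrays were below both saline arrays, with a gap of 0.30 between the closest pair. The means were 9.05 ± 0.21 (SD, n = 2) in saline and 8.52 ± 0.12 in ethanol, a log2 difference of -0.53, or 0.692 of the saline level. Ordered from the most negative early difference, Th ranked 17 among 23410 probe sets. The difference stayed between -0.68 and -0.38 when any 1 array was left out.

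The other enzymes of dopamine synthesis overlapped between the groups after early exposure. Ddc, which converts L-DOPA to dopamine and also serves serotonin synthesis, was at 7.13 and 6.98 in the early saline arrays and at 7.12 and 7.13 in the early ethanol arrays. These values overlapped, and the log2 difference was 0.07 (SE 0.08, 95% interval -0.12 to 0.27, limma adjusted p = 1). Gch1, which makes the first intermediate of the Th cofactor tetrahydrobiopterin, was at 5.48 and 5.49 in saline and 5.41 and 5.51 in ethanol, below background in every array.

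Among the transporters, Slc6a3, which returns released dopamine to the neuron, was at 8.78 and 8.50 in the early saline arrays and at 8.50 and 8.42 in the early ethanol arrays. The groups touched, the highest ethanol array lying just under the lowest saline array. The log2 difference was -0.18 (SE 0.13, 95% interval -0.48 to 0.13, limma adjusted p = 1). Slc18a2, which loads monoamines into vesicles, was at 7.43 and 7.45 in saline and at 7.79 and 7.34 in ethanol. Ethanol replicate 1 was the highest and ethanol replicate 2 the lowest of these arrays, and the difference was 0.12 (SE 0.15, 95% interval -0.23 to 0.47, limma adjusted p = 1). Without ethanol replicate 2 it was 0.35, past the thresholds of the study given below.

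Of the transcription factors, Nr4a2, a nuclear receptor that dopamine neurons require to form, was at 10.43 and 10.03 in the early saline arrays and at 10.33 and 10.20 in the early ethanol arrays. Both ethanol arrays lay between the saline arrays, and the log2 difference was 0.03 (SE 0.13, 95% interval -0.27 to 0.34, limma adjusted p = 1). Pitx3, a homeobox factor of midbrain dopamine neurons, was at 5.32 to 5.44 in saline and 5.31 to 5.36 in ethanol. En1, a homeobox factor of the midbrain and hindbrain, was at 5.50 to 5.63 in saline and 5.51 to 5.72 in ethanol. Foxa2, a forkhead factor of the ventral midline, was at 5.81 to 5.85 in saline and 5.72 to 5.78 in ethanol. Aldh1a7, a close paralog of the midbrain enzyme gene Aldh1a1, was at 5.64 to 5.68 in saline and 5.65 to 5.77 in ethanol. These 4 genes lay below background, and their early log2 differences, between -0.08 and 0.05, describe probe sets without a measured signal.

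At the thresholds of the study (unadjusted p under 0.05 and 1.2-fold), 1 of the 10 genes, Th, lay past them in the early arrays, against 0.923% of all 23410 probe sets. Since the early values of Th were among those known when the genes were chosen, nothing is read from this count. In an unmoderated test on the 4 early arrays, the analysis of variance of the study's methods, 0 of the 10 lay past the thresholds. Both ethanol arrays lay below both saline arrays for 3 of the 10 genes (Th, Slc6a3 and Foxa2), against 18.9% of all probe sets (17.3% of those above background), and above them for 0 of 10, against 7.5%. The mean was lower in ethanol for 5 of the 10 genes, against 59.8% of all probe sets. The median log2 difference of the 10 genes was 0.0035 and that of all probe sets -0.020. After Benjamini-Hochberg adjustment in limma, 0 probe sets (0% of 23410) passed for early exposure, 401 (1.71%) having an unadjusted p under 0.05.

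**Figure D2:**
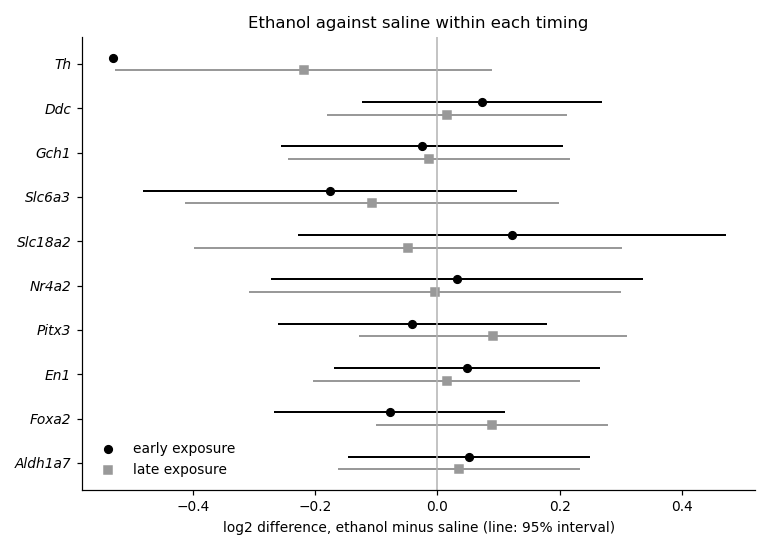
Log2 difference of ethanol minus saline (horizontal axis) for the 10 genes (vertical axis), with early exposure as black circles, late exposure as grey squares and lines for the 95% intervals of limma. Th in the early arrays (-0.53) is drawn without an interval, since its values were known when the genes were chosen, and every interval drawn includes 0.

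After late exposure, Th was at 9.01 and 9.04 in the saline arrays and at 8.65 and 8.96 in the ethanol arrays. Both ethanol arrays were again below both saline arrays, but ethanol replicate 2 by only 0.05. The means were 9.03 ± 0.02 in saline and 8.81 ± 0.22 in ethanol, a log2 difference of -0.22 (SE 0.13, 95% interval -0.53 to 0.09, limma adjusted p = 1). Without late ethanol replicate 2 it was -0.37, past the thresholds of the study, and without late ethanol replicate 1 it was -0.07. The late difference of Th thus rested on 1 array.

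The other measured members overlapped between the late groups. Ddc was at 8.06 and 8.02 in saline and 8.00 and 8.10 in ethanol, a log2 difference of 0.02 (95% interval -0.18 to 0.21) that became -0.0063 with each array centred on its median. Slc6a3 was at 9.04 and 8.69 in saline and at 8.78 and 8.74 in ethanol, both ethanol arrays lying between the saline arrays. Its log2 difference was -0.11 (SE 0.13, 95% interval -0.41 to 0.20, limma adjusted p = 1), with a value of 0.07 without saline replicate 1. Slc18a2 was at 8.72 and 8.41 in saline and at 8.52 in both ethanol arrays, a difference of -0.05 (95% interval -0.40 to 0.30). Nr4a2 was at 10.18 and 10.02 in saline and at 10.09 and 10.11 in ethanol, a difference of -0.0040 (95% interval -0.31 to 0.30).

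The 5 members without a measured signal were again below background in every late array, at 5.77 to 6.31. Of all 10 genes, 0 lay past the thresholds of the study in the late arrays, against 1.16% of all probe sets. Both ethanol arrays were below both saline arrays for 1 gene (Th), against 15.7% of probe sets, and above them for 1 (Foxa2, below background), against 12.7%. Among probe sets above background 24.7% were lower in this way. The mean was lower in ethanol for 5 of the 10 genes, against 52.7% of all probe sets. The median log2 difference of the 10 genes was 0.0056 and that of all probe sets -0.0067. In limma 0 probe sets (0%) passed after adjustment for late exposure, 583 (2.49%) having an unadjusted p under 0.05. The intervals of the 5 measured members reached at most 0.35 to either side of their differences, so changes smaller than this were not measurable for the least precise of them.

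The early difference of Th minus its late difference was -0.31 (SE 0.19), which includes the early values of Th and is given without a test. For the other 9 genes the early difference minus the late difference ran from -0.17 (Foxa2) to 0.17 (Slc18a2), and 0 of these 9 lay past the thresholds of the study, against 1.99% of all probe sets (1.15% lower and 0.833% higher). In limma 0 probe sets (0%) passed this comparison after adjustment and 483 (2.06%) had an unadjusted p under 0.05.

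Th was next set against other measured members within each array, which removes what an array shares between genes. Th minus Slc6a3 was 0.12 and 0.70 in the early saline arrays and -0.06 and 0.17 in the early ethanol arrays, so the groups overlapped and the mean shifted by -0.36. Th minus the mean of Slc6a3, Slc18a2 and Nr4a2, of which only Slc6a3 is largely restricted to midbrain dopamine neurons, was 0.02 and 0.54 in saline and -0.44 and -0.05 in ethanol. Here the groups did not overlap, by a gap smaller than the spread within either group, and the mean shifted by -0.52. Th minus Ddc, its partner enzyme, was 1.77 and 2.22 in saline and 1.31 and 1.47 in ethanol, a shift of -0.61 with the groups apart. In the late arrays the shifts were -0.11 against Slc6a3, -0.17 against the 3 genes and -0.23 against Ddc. An exact permutation test of 2 arrays against 2 cannot give a two-sided p below 0.333, and none was made. These shifts include the early values for which Th was singled out, and any gene without a difference of its own would return the shift of Th, so nothing further is read from them.

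**Figure D3:**
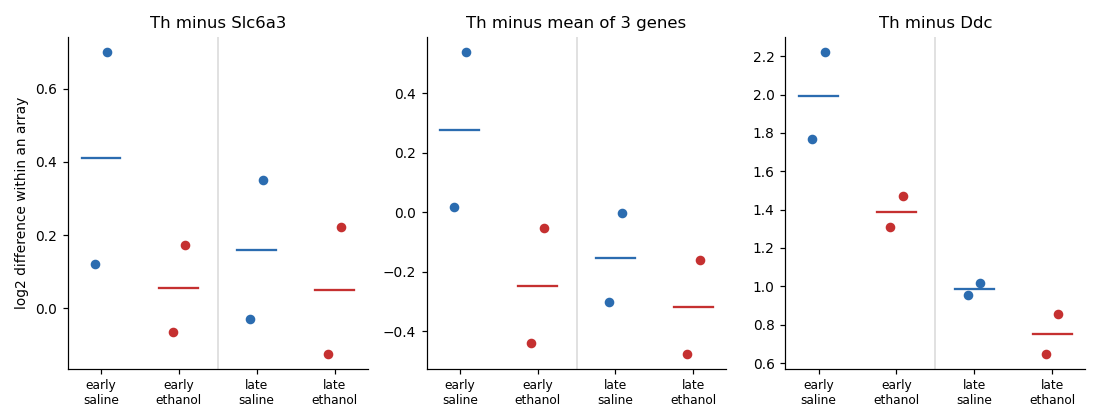
Log2 value of Th minus that of Slc6a3, of the mean of Slc6a3, Slc18a2 and Nr4a2, or of Ddc in the same array (vertical axes, each panel on its own scale), by group (horizontal axis), with a point for each array and bars for means over 2 arrays. The early groups overlapped against Slc6a3 (saline 0.12 and 0.70, ethanol -0.06 and 0.17) and lay apart against Ddc.

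Genes of the olfactory bulb, the other site of Th, were counted from a list chosen with earlier results of these arrays known. Of 10 transcription factors linked to bulb dopamine neurons, 9 had a lower mean in early ethanol (median log2 difference -0.10), against 59.8% of all probe sets, and 3 lay below saline past the thresholds of the study, against 0.645%. Since the list was chosen with these results known, nothing is read from its counts. The 3 were Dlx1 (-0.53, SE 0.15) and Dlx2 (-0.51, SE 0.13), homeobox genes of bulb interneurons, and Meis2 (-0.30, SE 0.09), a homeobox gene expressed in bulb dopamine neurons. Etv1 was the 1 factor with a higher mean (0.11, SE 0.08), and both ethanol arrays lay above both saline arrays. Both ethanol arrays lay below both saline arrays for 5 of the 10 factors, against 18.9% of all probe sets, and 4 overlapped between the groups. Of 12 other bulb genes, 12 had a lower mean (median -0.25) and 5 lay past these thresholds, with the same limit. They included Cdhr1, which encodes a protocadherin-like protein of bulb projection neurons (-0.83, SE 0.23), Doc2g, a synaptic vesicle gene (-0.55, SE 0.15), and Dlx6 (-0.38, SE 0.10, below background in 1 of the 4 arrays). Omp (-0.66, SE 0.14) was counted in this list although it marks mature olfactory sensory neurons rather than bulb cells. Cdhr1 was below background in early ethanol replicate 1, and without that array its difference was -0.40. Without early ethanol replicate 1, Dlx1 (-0.31), Meis2 (-0.22) and Dlx6 (-0.26) were no longer past the thresholds, nor were Dlx1 (-0.45) and Meis2 (-0.21) without early saline replicate 2. The limma adjusted p = 1 for each of these genes.

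**Figure D4:**
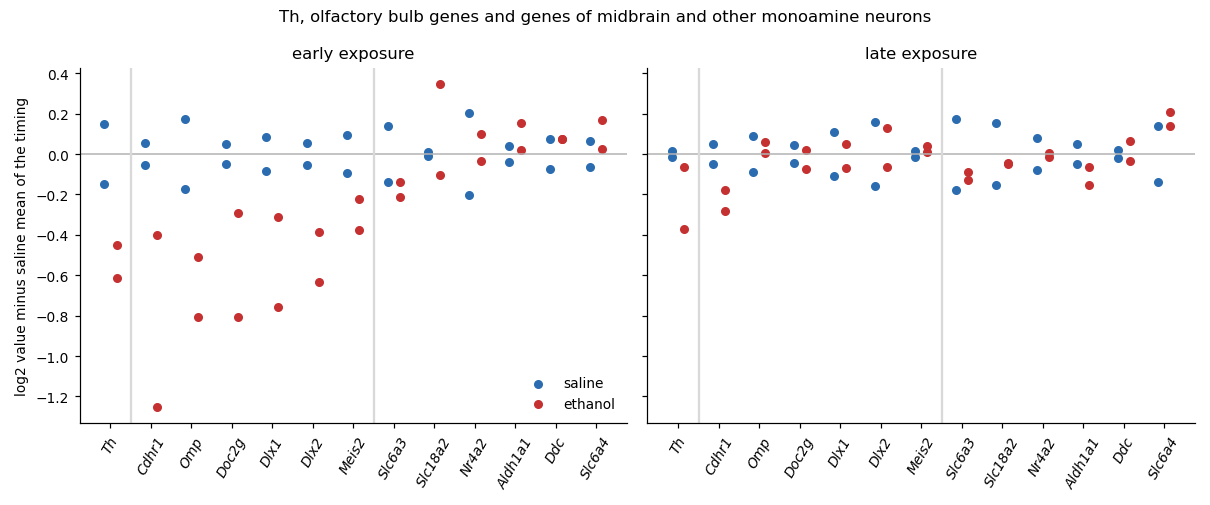
Log2 value of each array minus the saline mean of its timing (vertical axis) for Th, 6 genes picked from the olfactory bulb lists, and 6 genes of midbrain and other monoamine neurons (horizontal axis, separated by vertical lines), with blue points for saline and red points for ethanol. In the early arrays Th, the 6 drawn genes of the bulb lists and Slc6a3 were lower in both ethanol arrays, Slc6a3 by only 0.0014. Slc18a2, Nr4a2, Aldh1a1, Ddc and Slc6a4 overlapped between the groups. In the full bulb lists, 5 of the 10 transcription factors and 9 of the 12 other genes were lower in both ethanol arrays. The share of all probe sets was 18.9%. Etv1, not drawn, was higher in both ethanol arrays.

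Nasal gland genes moved with the same arrays in the other direction. Their 5 genes had a mean log2 level of 6.20 and 6.06 in the early saline arrays and of 8.93 and 7.01 in early ethanol replicates 1 and 2, and 4 of the 5 were higher past the thresholds of the study, against 0.278% of all probe sets. This list too was chosen with these results known, and nothing is read from the count. Bpifb9b, a secreted gland protein gene, differed by 3.78 (SE 0.68, early saline replicate 2 being below background) and its close paralog Bpifb9a, whose probes may share signal with it, by 2.49 (SE 0.60), or by 1.33 without early ethanol replicate 1. Obp2a, an odorant-binding protein gene, reached 8.32 in ethanol replicate 1, whereas ethanol replicate 2 (5.63) and saline (5.49 and 5.28) were below background, and without ethanol replicate 1 its difference was 0.24. Bpifa1, another secreted protein gene of the airway, differed by 1.13 and by 0.22 without that array. Obp2a and Bpifa1 were past the thresholds in neither limma on the 4 early arrays nor 7 of the 8 fits that left out an array, the exception being the fit without early ethanol replicate 2. The mean log2 level of the 12 other genes listed for the bulb, Omp among them, was 7.92 and 7.97 in early saline and 7.58 and 7.69 in early ethanol. Without early ethanol replicate 1, which had the highest gland level and the lowest bulb level, Th differed by -0.45, and without early ethanol replicate 2 by -0.61. The part of gland RNA or of the share of bulb tissue in the difference of Th was not tested.

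In the late arrays the same lists were closer to 0. The transcription factors of bulb dopamine neurons had a lower mean in 5 of 10 cases (median 0.01) with 0 past the thresholds, and the other bulb genes in 8 of 12 (median -0.05) with 1 lower past them, against 0.722% of all probe sets. That gene was Eomes, a T-box gene of mitral cells and of cerebellar brush cells (-0.36, SE 0.14), whose difference was -0.18 without late saline replicate 2 and -0.23 without late ethanol replicate 1, no longer past the thresholds. The gland genes were at a mean of 6.17 to 6.53 in the late arrays, with 0 of 5 past the thresholds and 0 of 5 with a mean above background.

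Other genes of midbrain dopamine neurons and of the dopamine pathway were counted at the same thresholds. Past them lay 0.923% of all probe sets early and 1.16% late, so nothing is read from a count of 0 in lists this short. Of 14 genes known from midbrain dopamine neurons, 5 had a lower and 9 a higher mean in early ethanol (median 0.02), where 59.8% of all probe sets were lower. Only 7 of the 14 had a mean above background in the early arrays, and 7 in the late arrays. Of the 14, 0 were lower and 1 was higher past the thresholds: Sncg, the gamma-synuclein gene, at 0.31 (SE 0.11), against 0.278% of all probe sets. Sncg was not past them without early ethanol replicate 1 (0.19) or early saline replicate 1 (0.21). Aldh1a1, the paralog of Aldh1a7 that marks ventral midbrain dopamine neurons, was above background in all early arrays and differed by 0.09 (SE 0.09). After late exposure 0 of the 14 lay past the thresholds (median 0.01), against 1.16% of all probe sets. For the early minus the late difference 1 of the 14, Ret, was higher past them (0.42, SE 0.16), against 0.833% of all probe sets. Ret was higher in both early ethanol arrays (0.17, SE 0.11) and lower in both late ethanol arrays (-0.25, SE 0.11).

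Of the 5 genes that make or regenerate tetrahydrobiopterin or regulate its synthesis, 0 lay past the thresholds after early exposure and 1 after late exposure. It was Gchfr, the feedback regulator of the Gch1 enzyme, higher by 0.27 (SE 0.10) but below background and not past the thresholds with each array centred on its median (0.25), with 0.44% of all probe sets higher past these thresholds in the late arrays. The monoamine oxidase genes Maoa and Maob, which break dopamine down, were past them in neither timing. The 8 genes of dopamine receptors and their striatal target neurons had early differences from -0.14 to 0.10 and late differences from -0.05 to 0.16. In either timing 0 of them lay past the thresholds, against 0.923% of all probe sets early and 1.16% late. Of these 8, 6 had a mean above background in the early arrays and 5 in the late arrays.

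Genes of the other monoamine neurons that share Ddc, Slc18a2 and Gch1 with dopamine neurons were also examined. Of 4 serotonin neuron genes, 1 was higher past the thresholds after early exposure (0.278% of all probe sets), Tph2, the enzyme of serotonin synthesis, at 0.33 (SE 0.10) and above background in 3 of the 4 early arrays. Without early ethanol replicate 1 the difference was 0.21, not past the thresholds. The serotonin transporter Slc6a4 differed by 0.10 (SE 0.11). Of 3 noradrenaline neuron genes, 0 lay past the thresholds in either timing, against 0.923% of all probe sets early and 1.16% late. Among them were the dopamine hydroxylase Dbh (0.02 early) and the noradrenaline transporter Slc6a2 (-0.06 early). All 3 were below background, so Th from noradrenaline neurons could not be followed by these genes.

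The likeness of other genes to Th was described by Pearson r over the 8 arrays, after each value was centred on the mean of its timing. The 9909 genes compared had 1 symbol and a mean above the mean background in each timing, which single arrays could miss, as Cdhr1 did in early ethanol replicate 1 and Doc2g in 1 late array. Values were not centred on group means, so r includes the early difference for which Th was singled out, and a gene lower in the same early arrays has a high r by construction. The 5 most like Th were Stoml3, a stomatin-like protein gene of sensory neurons (r = 0.99), Cbx1, a heterochromatin protein gene (0.95), Fam76b (0.95), Orc5, a subunit gene of the origin recognition complex (0.94), and Uxt (0.94). Stoml3 differed by -1.59 early and -0.61 late. The others named differed by -0.23 to -0.13 early and by -0.09 to -0.04 late. The bulb genes ranked had r from 0.68 (Dcx, rank 403) to 0.85 (Cdhr1, rank 48). Nothing is read from these r beyond the early differences. Slc6a3 had an r of 0.23 with Th (rank 3660), and Slc18a2 (-0.35), Nr4a2 (-0.41) and Ddc (-0.51) had negative r with Th. A gene that was not lower in the early ethanol arrays has a low r with Th by construction, so nothing is read from these values either. The 5 most like Slc6a3 were Gm527, Ebpl, Glrx5, Clptm1l and Zdhhc9 (r = 0.98 to 0.99). Of the measured members, Nr4a2 had the highest r with Slc6a3 (0.67), but it ranked only 2938 among the 9909 genes. Th, with an r of 0.23, ranked 7445, so neither stood out as like Slc6a3.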

How the data were processed

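Whole-brain RNA was hybridized to Affymetrix Mouse Gene ST arrays, 8 arrays in 4 groups taken from the sample titles. The deposited values are on the log2 scale: the authors ran RMA, including quantile normalization and a GC-content correction, in Partek Genomics Suite (6.6 in the submitters' processing notes). The study's methods describe expression data of the trimester 1 exposure but not of trimester 2, so the late arrays fall outside them and are assumed to have been processed alike. The build is not given in the sources used here. Of 35556 probe sets, 23410 carried a gene symbol in the platform annotation and were tested.

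Ethanol was compared with saline within each timing by a model of 4 group means over all 8 arrays (limma 3.58.1 under R 4.3.3), with moderated variances and Benjamini-Hochberg adjustment over 23410 probe sets at a threshold of 0.05. Counts are given at the study's thresholds. No low values were filtered. The fit was tested on simulated data. When leaving out an array reduced a group to 1, that group's spread was taken from the other groups. The labels name the arrays of a group as separate samples, each a pool of mice.

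The members and gene lists were chosen with earlier results of these data known. Named besides the 10 members were up to 4 genes per list with the smallest unadjusted p, 11 set genes, and the 5 genes most like Th and most like Slc6a3. Alternatives were an unmoderated test (the analysis of variance of the methods), other samples, scaling, filters, a variance trend, a replicate block and leaving out each array. Crossed late replicate numbers were added after the data were seen. Promoters came from RefSeq (GRCm38.p6), and figures were drawn in matplotlib 3.10.9.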

Additional observations from a re-analysis of the deposited data

How the results depend on the processing

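Of the 10 genes, the number past the thresholds of the study stayed at 1 (Th) for early and 0 for late exposure in limma on the arrays of 1 timing, with other scaling, with the dimmest probe sets left out, with every probe set tested and with a variance trend. The early values of Th were known when the genes were chosen, so nothing is read from any count here that includes them. The unmoderated test gave 0 for early exposure, and Dlx1, Dlx2, Meis2, Dlx6, Omp, Cdhr1, Doc2g, Sncg, Tph2, Bpifb9a, Bpifb9b, Obp2a, Bpifa1 and Eomes were not past the thresholds in it either. The mean of several probe sets per gene was not run, since each gene had 1. With the replicate number as a block the counts were 1 for early, 0 for late and 0 for the early minus the late difference. They were the same with the late numbers crossed, a pairing tried after seeing the data. The labels give the numbers no shared origin. Even so, the replicate 1 minus replicate 2 differences of ethanol and of saline correlated at 0.466 early and -0.464 late. Arrays with the same number thus deviated alike early, and arrays with opposite numbers late. The main model leaves this out, and its source was not tested.

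The counts for early, late and early minus late each changed in some fits that left out an array. Such fits leave 1 array in a group. Over them the log2 difference of Th ran from -0.68 to -0.38 early and from -0.37 to -0.066 late. Its early minus its late difference ran from -0.47 to -0.16. Small differences changed sign. With arrays centred on their medians, late Ddc was -0.0063 and En1 -0.0063. With quantile normalization, late Nr4a2 was 0.047, En1 -0.024 and Aldh1a7 -0.0052. Leaving out single arrays gave early ranges of -0.0015 to 0.15 for Ddc, -0.078 to 0.027 for Gch1, -0.10 to 0.35 for Slc18a2, -0.17 to 0.23 for Nr4a2, -0.10 to 0.019 for Pitx3, -0.056 to 0.15 for En1, -0.0098 to 0.11 for Aldh1a7 and -0.040 to 0.076 for Dbh. The late ranges were -0.035 to 0.065 for Ddc, -0.11 to 0.084 for Gch1, -0.28 to 0.068 for Slc6a3, -0.20 to 0.10 for Slc18a2, -0.082 to 0.074 for Nr4a2, -0.0024 to 0.19 for Pitx3 and -0.027 to 0.097 for Aldh1a7. With 2 arrays per group and 5 of the 10 genes below background, small changes of these genes could not be measured.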
